A study of Rattus norvegicus with 5 samples.

Results

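The interferon response genes described here are 38 rat genes chosen by name. They comprise interferon receptors, the transcription factors that act downstream of them, and genes induced by interferon. A probe was taken as a member when its gene name on the array, or the current rat symbol of that name, was one of the 38. This found 46 of the 41012 probes, for 36 of the 38 genes among 15172 genes with an official symbol. No probe was matched to Irf8 or Ifnar2. The brightest probe of a gene stood for that gene, and 34 of the 36 were tested. Oasl and Gbp5 did not pass the filter, which kept a probe when the scanner software marked it well above background, in the kaolin or the saline channel, on 3 or more arrays.

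The study compared parietal cortex of rat pups made hydrocephalic with that of sham controls. Pups of the hydrocephalic group received kaolin, a clay mineral that provokes inflammation and scarring and blocks the flow of cerebrospinal fluid, on postnatal day 1. Control pups received saline on the same day, stayed with the dam as the kaolin pups did, and were sampled at the same age, postnatal day 22, which was post-kaolin day 21. Total RNA of 1 kaolin and 1 saline sample was hybridised to each of 5 two-colour Agilent arrays. The labels name no strain, no route of injection and no mutation. Nor do they tell if a sample came from 1 pup or several, so the p-values measure the spread between these samples. Kaolin RNA was always labelled with Cy3 and saline RNA with Cy5, so an effect of the dye and an effect of kaolin cannot be told apart.

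Interferons are cytokines released when cells sense viral nucleic acid, damaged host nucleic acid or, for interferon gamma, when lymphocytes are activated. Type I interferons bind the receptor made of Ifnar1 and Ifnar2, and interferon gamma binds the one made of Ifngr1 and Ifngr2. Janus kinases on the receptors start the signal. Type I interferon acts through the complex ISGF3, which holds Stat2 and Irf9 and binds interferon-stimulated response elements, while interferon gamma acts through gamma-activated sites. In the brain, microglia, astrocytes, endothelial cells and neurons can all carry these receptors.

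The promoters of members with a mean log2 ratio of at least 1, and of the Ifitm and Ifit families, are shown first because they carry the elements that define this response. They come from the RefSeq table on the rat build GRCr8, in which 29 of the 38 members were found. Isg15, Ifitm1, Ifit1 and Ifit2 were not matched there. Within the 250 bases before the start, the core of the interferon-stimulated response element, searched as GAAA, any 2 bases and GAAA on either strand, was present in 16 of the 29 (55.2%). It was present in 3.41% of all 33469 promoters of the same length in the table. The gamma-activated site TTCNNNGAA, which reads the same on both strands, was present in 10 of the 29 (34.5%) and in 7.67% of all promoters. Both were present in 5 members, and the matches can overlap. A match describes letters and does not show binding. The lines below read 5′ to 3′ on the strand of the gene, with the response element core in capitals. A core on the opposite strand reads TTTC, any 2 bases and TTTC.
Ifitm3, chr1:205541768-205541827, minus strand: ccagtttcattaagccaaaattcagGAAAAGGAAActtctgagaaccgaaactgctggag
Ifitm2, chr1:205482349-205482406, minus strand: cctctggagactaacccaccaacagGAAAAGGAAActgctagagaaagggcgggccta
Gbp2, chr2:234005671-234005726, plus strand: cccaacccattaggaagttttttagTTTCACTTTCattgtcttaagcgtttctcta
Bst2, chr16:18255058-18255123, minus strand: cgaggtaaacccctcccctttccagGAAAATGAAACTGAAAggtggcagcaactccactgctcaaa
Oas1a, chr12:41330400-41330465, plus strand: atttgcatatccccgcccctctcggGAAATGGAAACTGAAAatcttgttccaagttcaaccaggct
Ifi27, chr6:128355118-128355177, plus strand: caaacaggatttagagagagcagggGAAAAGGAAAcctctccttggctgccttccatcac
Ifit3, chr1:241527257-241527316, plus strand: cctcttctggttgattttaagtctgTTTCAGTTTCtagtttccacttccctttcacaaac

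The core nearest to the start began 31 bases before it in Gbp2, 33 in Ifitm2, 35 in Oas1a, 44 in Ifitm3 and Ifit3, and 125 in Bst2. Oas1a and Bst2 each held 2 overlapping cores that share a GAAA. Ifi27 held 2 separate cores, of which the farther is shown and the nearer began 84 bases before the start. Ifitm2 and Ifitm3 held the same 10 letters on the same strand. Ifi47, whose mean ratio also exceeded 1, held no core in this window but 2 gamma-activated sites, and Irf1, shown beside it as a choice made after its values were seen, held 1 such site. The nearer Ifi47 site began 96 bases before the start. In these lines the capitals mark that site.
Ifi47, chr10:33798628-33798676, plus strand: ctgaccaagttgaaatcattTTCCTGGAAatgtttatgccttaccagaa
Irf1, chr10:38417773-38417821, plus strand: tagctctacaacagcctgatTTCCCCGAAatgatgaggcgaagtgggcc

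The arrays had like counts of probes well above background but did not all run the same way. The kaolin channel had 27956 to 29385 probes well above background and the saline channel 27372 to 28930, and no spot was saturated. Arrays 1 to 4, numbered by the replicate number in the labels, lay on 1 slide and array 5 on another. Over the 29114 tested probes the log2 ratios of arrays 3 and 4 correlated at 0.825, whereas those of arrays 1 and 2 correlated at -0.37. The labels give the same dyes for array 2 as for the others, so its direction was kept as labelled, and results with its sign turned are given where they bear on the members. All 12 neuron markers listed for a check of the tissue passed the filter. The tissue was taken whole, so more cells of a type and more RNA per cell cannot be told apart in any ratio below.

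Across the members the kaolin channel was brighter than the saline channel on 3 of the 5 arrays and near equal to it on the other two. The mean log2 ratio of kaolin over saline was above 0 for 30 of the 36 genes, where 55% of all genes were above 0. It was at least 1 for 7 of the 36, where 0.738% of all genes reached 1. The median over the 36 members was 0.02 on array 1, -0.10 on array 2, 0.77 on array 3, 0.51 on array 4 and 0.73 on array 5, with a mean of 0.39 ± 0.40 (SD, n = 5 arrays). Over all genes the median was at most 0.03 from 0 on every array. Of the 36 members, 20, 13, 33, 30 and 33 had a ratio above 0 on arrays 1 to 5, where 52.1%, 49.8%, 54.4%, 54% and 53.9% of all genes did.

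None of the 34 tested members passed an adjusted p of 0.05 (limma, Benjamini-Hochberg over all 29114 probes, two-sided), and 0% of all tested genes passed in either direction. The lowest adjusted p among members was 0.243. At an unadjusted p under 0.05, 20 members had a positive ratio and 1 a negative ratio, where 12.3% and 6.59% of all tested genes did. Of these 20, Mx1, Ifit3 and Igtp were well above background on only 1 saline array each, so they passed the filter through the kaolin channel. Counts below that hold Mx1, Ifit3 or Igtp share this limit. A gene is said to be called higher or lower when its adjusted p is under 0.05. Without array 2, 6 members were called higher by limma, namely Oas1a, Mx1, Ifitm3, Isg15, Gbp2 and Ifi35, with adjusted p between 0.0454 and 0.0494, where 3.38% of all genes were called higher and 1.9% lower. With array weights in limma, which gave array 2 a weight of 0.461 and array 4 one of 2.38, 18 members were called higher and 1 lower, against 8.06% and 4.07% of genes. With the sign of array 2 turned, 0 members were called, where 0.864% of genes were called higher and 0.623% lower, and the members' median was 0.43.

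**Figure D1:**
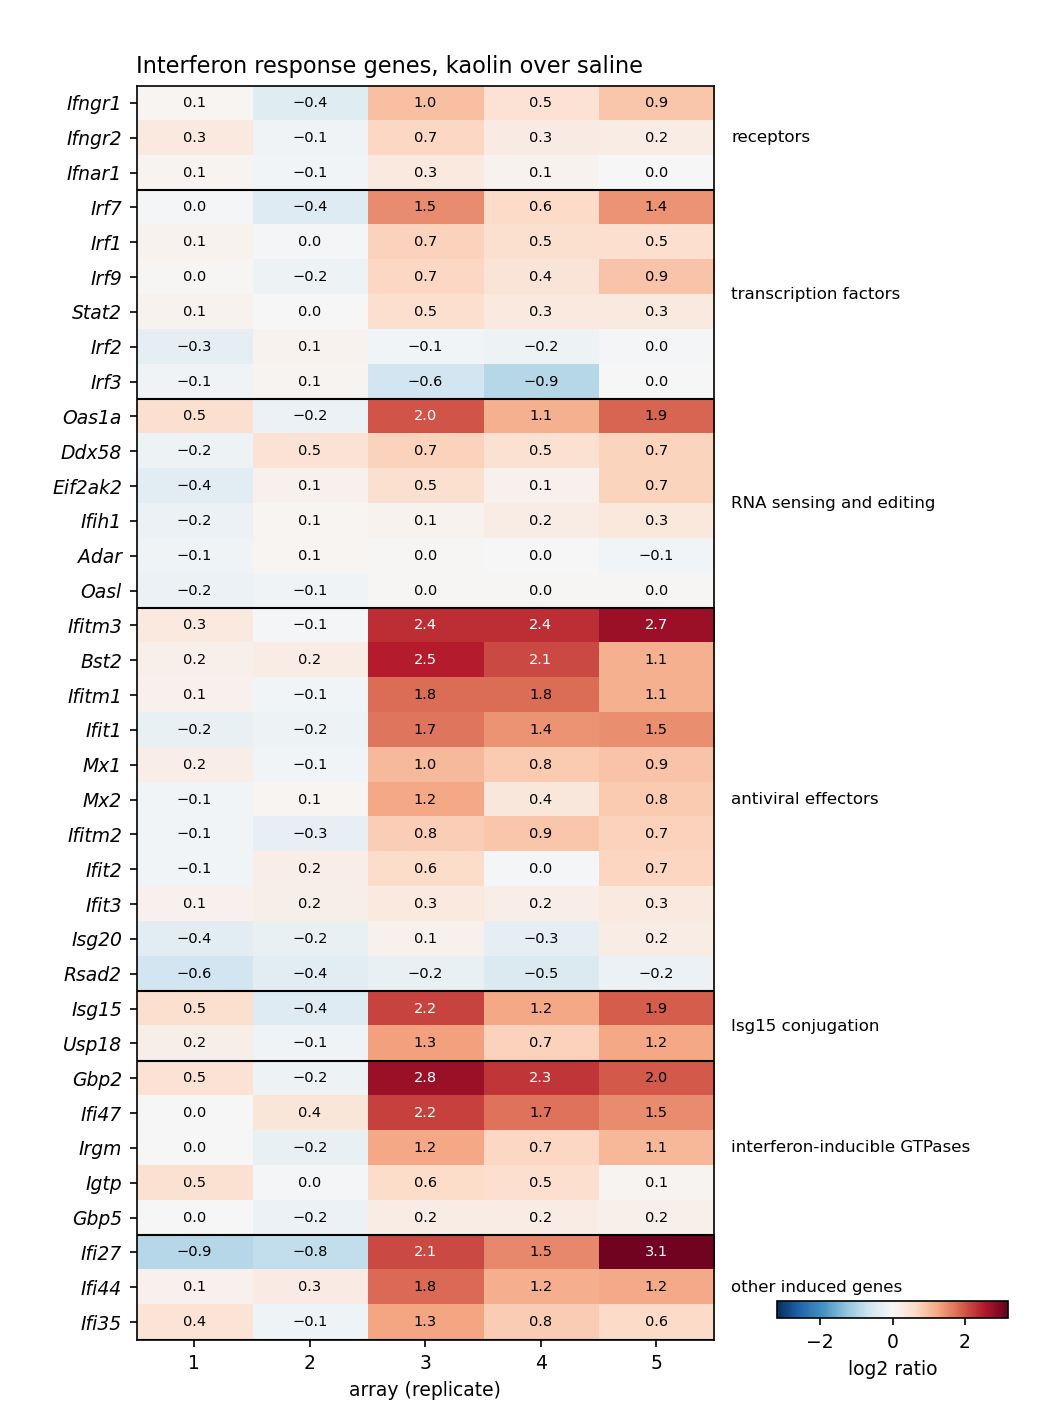
Log2 ratio of kaolin over saline for the 36 members on the array (rows, grouped by role and ordered by mean within each group) on each of the 5 arrays (columns). Red is higher in kaolin and blue higher in saline; most large ratios stand on arrays 3, 4 and 5, with Ifi27 on array 5 the highest at 3.10.

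The means of the 3 receptors on the array ran from 0.09 to 0.40, where the median of the 36 members' means was 0.41. The chain Ifngr1, which binds interferon gamma, had log2 ratios of 0.06, -0.38, 0.97, 0.46 and 0.90 on arrays 1 to 5, with a mean of 0.40 ± 0.57 (SD, n = 5; limma adjusted p = 0.322). Its partner Ifngr2, needed for signalling, had a mean of 0.27 ± 0.28. For both chains array 2 alone was negative. Ifnar1, the signalling chain for type I interferon, had ratios of 0.09, -0.09, 0.32, 0.11 and 0.02 and a mean of 0.09 ± 0.15. Its other probe had a mean of 0.16.

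Among the transcription factors, Irf7, which amplifies type I interferon production and is itself induced by it, had the largest mean ratio. Its log2 ratios were -0.04, -0.40, 1.50, 0.62 and 1.44, with a mean of 0.62 ± 0.86 (limma adjusted p = 0.306). Its kaolin levels on arrays 1 and 2 lay within the range of the 5 saline levels, and those on arrays 3 to 5 lay above it. Irf1, an activator induced by interferon gamma, had a mean of 0.38 ± 0.33, and Irf9, the DNA-binding subunit of ISGF3, had a mean of 0.37 ± 0.44. Stat2, its partner in ISGF3, had ratios of 0.11, 0.00, 0.53, 0.32 and 0.31 and a mean of 0.25 ± 0.21. Stat2 was positive on all 5 arrays, though by less than 0.01 on array 2.

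The remaining 2 factors on the array had negative means. Irf2, which competes with Irf1 for its sites, had ratios of -0.31, 0.11, -0.10, -0.16 and -0.04 and a mean of -0.10 ± 0.16. Irf3, present before induction and activated by phosphorylation, had a mean of -0.30 ± 0.44, with its lowest ratio, -0.91, on array 4. Neither differed from 0 beyond the spread between arrays (limma adjusted p = 0.508 and 0.333). Both were slightly positive on array 2, where most other members were negative.

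Among the genes that sense or edit RNA, Oas1a stood apart from the rest. Oas1a makes the short adenylate chains that activate RNase L. Its log2 ratios were 0.52, -0.20, 2.01, 1.13 and 1.86, with a mean of 1.06 ± 0.93, a fold of 2.09 (limma adjusted p = 0.243). The kaolin level exceeded every saline level on arrays 1, 3, 4 and 5. Ddx58, which encodes the RNA sensor RIG-I, had a mean of 0.45 ± 0.36 and was negative on array 1 only. Eif2ak2, the RNA-activated kinase that halts translation, had a mean of 0.23 ± 0.42. Its other probe had a mean of 0.08. Ifih1, which encodes the sensor MDA5, had a mean of 0.11 ± 0.20.

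Adar, which edits adenosine in double-stranded RNA, had the smallest mean ratio of this group that was tested. Its ratios were -0.10, 0.07, 0.03, -0.02 and -0.08, with a mean of -0.02 ± 0.07 (limma adjusted p = 0.872). Its sign turned under 4 other ways of reading the arrays, with means between 0.0035 and 0.02. Oasl, a relative of Oas1a without its enzyme activity, was not well above background in either channel on any array, and no fold is given for it.

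The antiviral effectors held both the largest mean of all members and the most negative one. Ifitm3, a membrane protein that blocks the entry of viruses through endosomes, was read by a probe at chr1:201199601-201199660 on the array's build rn4. Its kaolin levels, as normalised log2 intensity, were 8.14, 8.14, 10.35, 10.72 and 10.81 on arrays 1 to 5, and its saline levels were 7.83, 8.20, 7.97, 8.37 and 8.08. The kaolin levels of arrays 3 to 5 therefore stood above all saline levels, and those of arrays 1 and 2 within their range. The log2 ratios were 0.31, -0.06, 2.37, 2.35 and 2.73, with a mean of 1.54 ± 1.31, a fold of 2.91 (SE of the mean 0.45; limma adjusted p = 0.243).

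Its relatives followed the same arrays at smaller sizes. Ifitm1 had a mean of 0.95 ± 0.89 and Ifitm2 one of 0.41 ± 0.54. The Ifitm genes are near-identical copies in places and the probes' sequences were not used here, so signal may be shared between them. Bst2, or tetherin, which holds budding viruses at the cell surface, was positive on all 5 arrays. Its ratios were 0.17, 0.23, 2.50, 2.12 and 1.13, with a mean of 1.23 ± 1.07 and a fold of 2.35. A second Bst2 probe had a mean of 1.06. Where 7.14% of all genes were positive on all 5 arrays, 5 of the 36 members were, namely Stat2, Ifit3, Bst2, Ifi47 and Ifi44.

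Mx1 and Mx2 are dynamin-like GTPases that trap viral components. Mx1 had a mean log2 ratio of 0.58 ± 0.49, but was well above background on 4 kaolin arrays and 1 saline array, so the size of its ratio depends on how the background is removed. With the scanner software's processed signals, median centred, its mean was 1.71. Mx2, which was well above background throughout, had a mean of 0.48 ± 0.55.

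The Ifit genes encode proteins that bind foreign RNA ends, and their probes differed among themselves. The brightest Ifit1 probe, at chr1:238580038-238580097 on rn4, had ratios of -0.25, -0.17, 1.71, 1.45 and 1.48, with a mean of 0.84 ± 0.97. A second Ifit1 probe had a mean of 0.32. The last, whose start lies 30045 bases from that of the brightest, was not well above background on any array and had a mean of -0.03. This last probe was matched to Ifit1 by accession, and the brightest by symbol only. Ifit2 had a mean of 0.27 ± 0.36, and its other probe, not well above background on any array, one of 0.02. Ifit3 had ratios of 0.14, 0.18, 0.31, 0.21 and 0.32, with a mean of 0.23 ± 0.08, the smallest spread of any member positive on all 5 arrays. It was well above background on 3 kaolin arrays and 1 saline array, and its mean was 1.06 with the processed signals. The Ifit genes form a cluster of related sequences, so the assignment of single probes is uncertain.

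Rsad2, or viperin, an enzyme that makes a chain-terminating nucleotide, was the 1 member negative on all 5 arrays, where 5.09% of all genes were. Its kaolin levels were 9.52, 9.27, 9.64, 9.14 and 9.33 and its saline levels 10.14, 9.64, 9.88, 9.59 and 9.52. The groups overlapped, but within each array the kaolin level was the lower. The ratios were -0.62, -0.36, -0.24, -0.45 and -0.19, with a mean of -0.37 ± 0.17, a fold of 0.772 (limma unadjusted p = 0.00283, adjusted p = 0.243). With array weights Rsad2 was the member called lower, at -0.38 with a limma adjusted p of 0.0422. A second, dimmer Rsad2 probe had a mean of -0.06. Isg20, an exonuclease for single-stranded RNA, had ratios of -0.36, -0.23, 0.14, -0.32 and 0.24 and a mean of -0.11 ± 0.28.

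The Rsad2 promoter carries the same 10-letter core, on the same strand, as that of Irf7, which had a positive mean. This pair was chosen for display after the values were seen. The core began 147 bases before the start in Rsad2 and 69 bases before it in Irf7.
Rsad2, chr6:48788233-48788292 on GRCr8, minus strand: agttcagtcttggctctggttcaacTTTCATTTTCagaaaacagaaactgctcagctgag
Irf7, chr1:205800058-205800117 on GRCr8, minus strand: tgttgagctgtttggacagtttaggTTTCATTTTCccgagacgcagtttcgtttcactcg

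Isg15 is a ubiquitin-like protein that is attached to other proteins, and Usp18 is the protease that removes it. Isg15 had log2 ratios of 0.50, -0.41, 2.15, 1.24 and 1.94, with a mean of 1.08 ± 1.06 and a fold of 2.12. Usp18 had ratios of 0.18, -0.11, 1.31, 0.74 and 1.24, with a mean of 0.67 ± 0.63. Both were positive on the same 4 arrays, and the order of the 5 arrays by ratio was the same for both. A second Usp18 probe, well above background on 3 kaolin arrays and 1 saline array, had a mean of 0.36.

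The GTPases induced by interferon act on vacuoles that hold bacteria or parasites. Gbp2 had kaolin levels of 8.87, 8.49, 11.69, 11.32 and 10.85 and saline levels of 8.41, 8.67, 8.93, 9.03 and 8.88. The kaolin level lay far above the saline range on arrays 3 to 5 and within it on arrays 1 and 2. The ratios were 0.46, -0.17, 2.77, 2.29 and 1.97, with a mean of 1.46 ± 1.26, a fold of 2.75 (limma adjusted p = 0.243).

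Ifi47 was the 1 member of 36 (2.78%) whose kaolin and saline levels did not overlap, where 2.77% of all genes showed no overlap. Its kaolin levels were 6.71, 6.93, 8.38, 8.07 and 7.74 and its saline levels 6.71, 6.55, 6.19, 6.34 and 6.24, so that array 1 separated the groups by less than 0.01. The ratios were 0.01, 0.38, 2.19, 1.73 and 1.50, with a mean of 1.16 ± 0.93. It was well above background on 5 kaolin and 3 saline arrays, and its mean was 2.43 with the processed signals.

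The other GTPases had smaller ratios with normexp and loess. Irgm had a mean of 0.55 ± 0.64. Igtp had a mean of 0.33 ± 0.28 and was well above background on 4 kaolin arrays and 1 saline array, and with the processed signals its mean was 1.48. Gbp5 was well above background on 1 kaolin array and on no saline array. Its ratios were -0.01, -0.20, 0.24, 0.24 and 0.16, with a mean of 0.09 ± 0.19, and it was not tested.

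**Figure D2:**
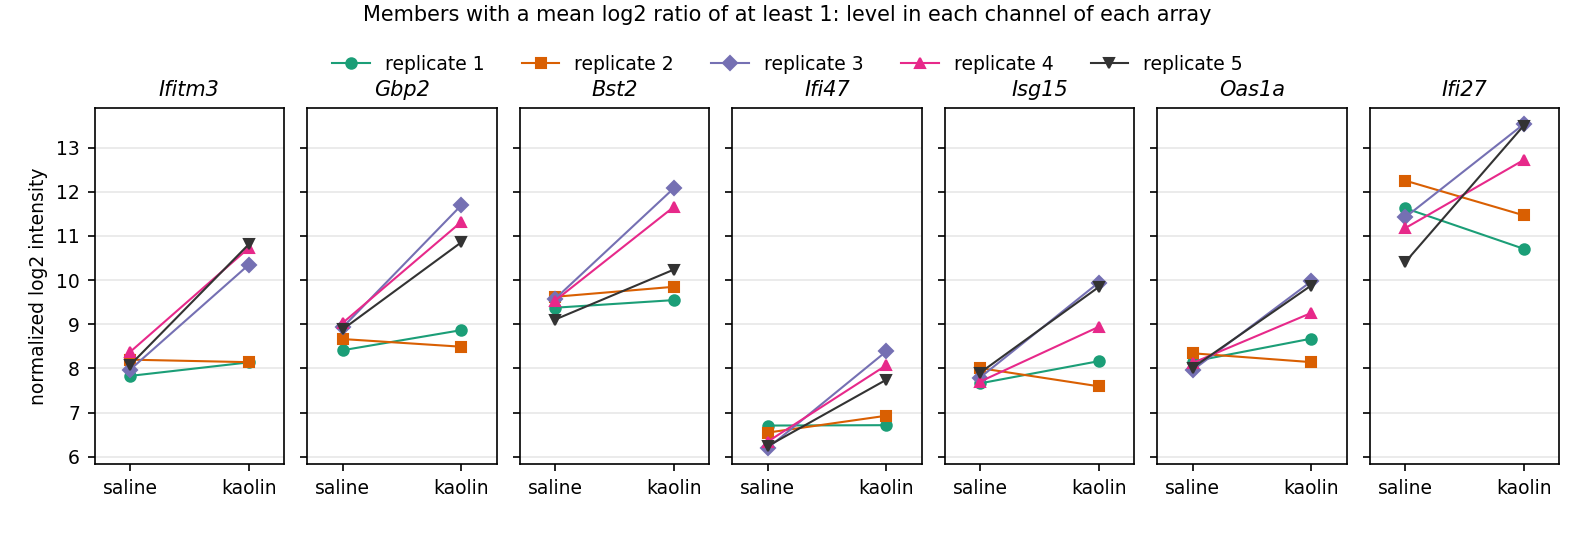
Normalised log2 intensity of the 7 members with a mean log2 ratio of at least 1, in the saline and the kaolin channel of each array; a line joins the 2 channels of 1 array and levels are not comparable between genes. The saline levels lie close together in 6 of the 7 panels, and the kaolin levels of arrays 1 and 2 lie below those of arrays 3 to 5 in all 7.

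The remaining members are induced genes of less certain function. Ifi27, a small hydrophobic protein found at mitochondria and the nuclear envelope, had the widest spread of all members. Its ratios were -0.92, -0.79, 2.11, 1.54 and 3.10, with a mean of 1.01 ± 1.79 (limma adjusted p = 0.386). It was negative on arrays 1 and 2, and its ratio on array 5 was the highest of any member on any array. Its saline levels also varied, from 10.40 to 12.25, more than those of the other members in the plot of levels by channel.

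Ifi44 was positive on all 5 arrays, with ratios of 0.13, 0.27, 1.81, 1.16 and 1.22 and a mean of 0.92 ± 0.71. Its other probes had means of 0.89 and 0.54. Ifi35, which binds the factor Nmi, had ratios of 0.43, -0.13, 1.27, 0.82 and 0.60 and a mean of 0.60 ± 0.51. Leaving out array 2 brought Ifi35 to 0.78 with a limma adjusted p of 0.0454.

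The spread of the members lay in the kaolin samples. The median SD of the normalised log2 level over the 36 members was 0.41 between kaolin samples and 0.13 between saline samples. The kaolin SD was the larger for 33 of the 36 (91.7%), where it was for 67.3% of all genes. Across the 36 members, the ratios of arrays 3 and 4 correlated at 0.945, those of arrays 3 and 5 at 0.875 and those of arrays 4 and 5 at 0.81. Array 1 correlated with the others at between 0.108 and 0.377, and array 2 at between -0.339 and 0.177. All these are Pearson values. By rank (Spearman), array 1 correlated with arrays 2 to 5 at -0.0221, 0.523, 0.531 and 0.341. These correlations run across genes, which are not independent replicates, and are given as a description.

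The ratios of members with and without a motif in their promoters overlapped. The 16 members on the array with a response element core had a median mean ratio of 0.48, and 14 were positive. The 11 with no core in the window had a median of 0.37, and 9 were positive. The 8 with a gamma-activated site were all positive, with a median of 0.81, and the 19 without one had a median of 0.25, with 15 positive. These differences were not tested.

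**Figure D3:**
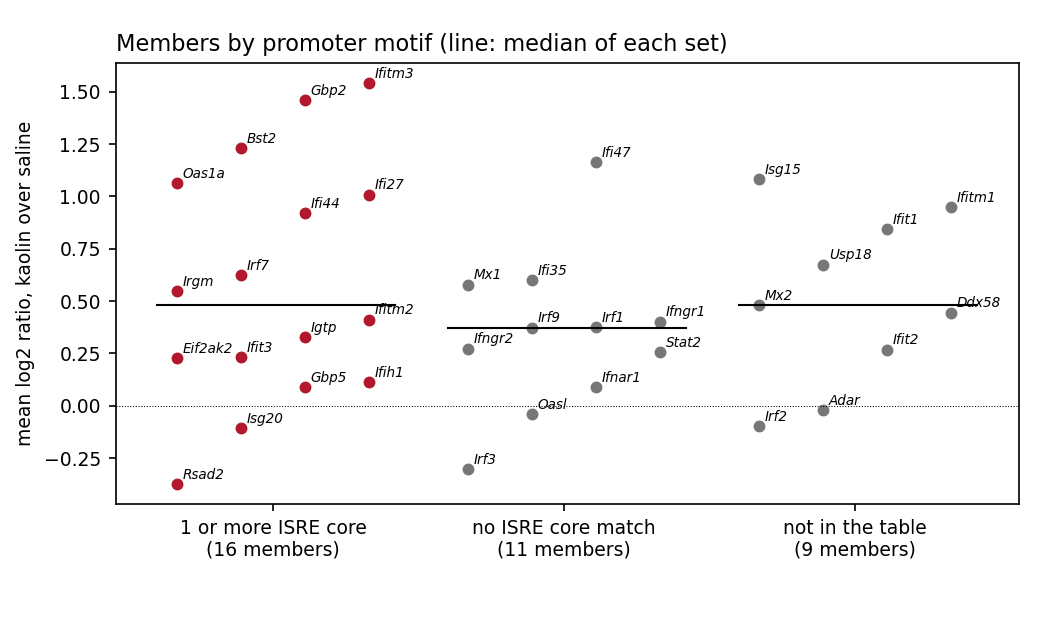
Mean log2 ratio of kaolin over saline (5 arrays) of each member, by whether the 250 bases before its start hold the response element core on either strand; points are genes, spread sideways for legibility, and lines are medians. The 16 members with the core run from Rsad2 at -0.37 to Ifitm3 at 1.54, and the 11 without it from Irf3 at -0.30 to Ifi47 at 1.16.

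Other genes of the pathway had their larger ratios on the same arrays. Of 113 listed genes that are not members, 79 had a probe and 64 were tested. None passed limma's adjusted p of 0.05. At an unadjusted p under 0.05 (limma), 33 had a positive ratio and 0 a negative one, where 12.3% and 6.59% of all tested genes did. Of the 33, Zbp1, Slfn3 and Cxcl10 passed the filter through the kaolin channel. Zbp1 and Slfn3 were well above background on 0 saline arrays and Cxcl10 on 2. The median over the 79 was -0.01, 0.02, 0.56, 0.33 and 0.38 on arrays 1 to 5. For the 11 listed ligands 3 probes were on the array, 1 each for Ifnb1, Ifng and an interferon alpha named both Ifna1 and Ifna5. These were not well above background in either channel on any array.

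In signal transduction, the phosphatase Ptpn6 had a mean of 0.96 and the factor Irf5 one of 0.42, while the feedback inhibitor Socs3 had a mean of 0.15. Among sensors upstream of interferon, Unc93b1, which escorts endosomal Toll-like receptors, had a mean of 0.67. The adaptor Myd88 had a mean of 0.44 and the DNA-sensing adaptor Sting1 one of 0.41.

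Among further induced genes the largest means were those of the chemokine Cxcl10 at 1.06, Ifi27l2b at 1.00 and Lgals3bp at 0.97. A second, dimmer probe given the name Ifi27l2b was negative on all 5 arrays, with a mean of -0.30. It lies on chromosome 1 of rn4 and the first on chromosome 6, so whether it reads the same gene is uncertain. Cxcl10 had ratios of 0.08, 0.03, 2.09, 1.30 and 1.78. It was well above background on 4 kaolin and 2 saline arrays, so its saline signal lay near background and the size of its ratio is uncertain. Genes for antigen presentation had the largest ratios of the pathway lists, with medians of 0.09 and 0.00 on arrays 1 and 2 and of 0.94 to 1.28 on arrays 3 to 5. The class I molecule RT1-A2 had a mean of 1.30, and the immunoproteasome subunits Psmb9 and Psmb8 had means of 1.28 and 1.22. Cxcl10 and these 3 were below 0.10 on array 2 except RT1-A2, at 0.25.

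Markers of microglia and macrophages had high ratios on the same arrays as the members. All 16 on the array had a positive mean, and their median was -0.01, 0.04, 1.83, 1.16 and 1.43 on arrays 1 to 5. Their summed signal was 44765 to 150863 in kaolin and 42404 to 47406 in saline samples, where that of the members was 24475 to 50533 and 24704 to 27403. Cd68, a lysosomal marker of phagocytes, had a mean of 1.27 and Aif1 one of 1.12, whereas P2ry12 and Tmem119, markers of resting microglia, had means of 0.06 and 0.15. The part of these cells in the members' ratios was not tested.

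Markers of other immune cells were mixed, and those named here with a ratio were chosen after their values were seen. Of 13 lymphocyte markers 6 were tested, while Cd2, Cd3e, Ms4a1 and Prf1 were among those not well above background on any array. Of the 13 means, 7 were positive and 6 negative, with a median of 0.02 and a range of -0.32 to 0.59, the highest being Cd8b. Negative on all 5 arrays were 2 of the 13, where 5.09% of all genes were. Cd8b, a chain of the co-receptor of cytotoxic T cells, was well above background throughout, with ratios of 0.18, -0.03, 1.38, 0.56 and 0.85 and a mean of 0.59 ± 0.56 (limma adjusted p = 0.243). Cd8a was well above background on 3 kaolin arrays and 0 saline arrays, whereas Cd3d, on all arrays of both groups, had a mean of -0.08. The lymphocyte markers' summed signal was 1173 to 1543 in kaolin and 1188 to 1245 in saline. The neutrophil list of 8 summed to 717 to 1673 and 720 to 796, with Cxcr2 and Mpo not well above background. On that list Lcn2, an iron-binding protein that other inflamed cells also make, had ratios of 0.14, -0.04, 2.57, 2.45 and 2.61 and a mean of 1.55 ± 1.37, and Csf3r had a mean of 0.38. Of the 5 plasmacytoid dendritic cell markers 4 had a positive mean and 1 a negative one. They summed to 11344 to 18599 in kaolin and 13009 to 21730 in saline. Bst2 and Tlr7, at mean saline log2 levels of 9.44 and 6.87, made up little of the saline sum, so it does not give the direction of most markers. Siglech was not well above background on any array, and Bst2 is itself a member. The part of these cells in the members' ratios was not tested.

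Among markers of resident brain cells, Gfap, the filament protein of astrocytes, also named after its values were seen, had ratios of 0.39, 0.60, 2.81, 2.32 and 2.95 and a mean of 1.81 ± 1.23, a fold of 3.51 (limma adjusted p = 0.243). It was positive on all 5 arrays, and its mean was larger than that of any member. Of the 10 astrocyte markers 4 had a positive mean, among them Aqp4 at 0.43 and Gja1 at 0.37, and the summed signal was 78717 to 121568 in kaolin and 86806 to 100702 in saline. All 8 meningeal markers had a positive mean, with sums of 18738 to 50022 and 22230 to 30679, and 11 of 12 neuron markers had a negative mean, with sums of 136351 to 213089 and 168808 to 211321. The mean was positive for 7 of 11 endothelial and pericyte and 5 of 8 oligodendrocyte markers. The saline samples differed in markers of choroid plexus and ependyma, whose sum ran from 1947 to 54460 there and from 1357 to 5828 in kaolin samples, mostly through Ttr, the transport protein of the choroid plexus, at log2 levels of 9.56 to 15.67 in saline. Their part in the members' ratios was not tested.

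**Figure D4:**
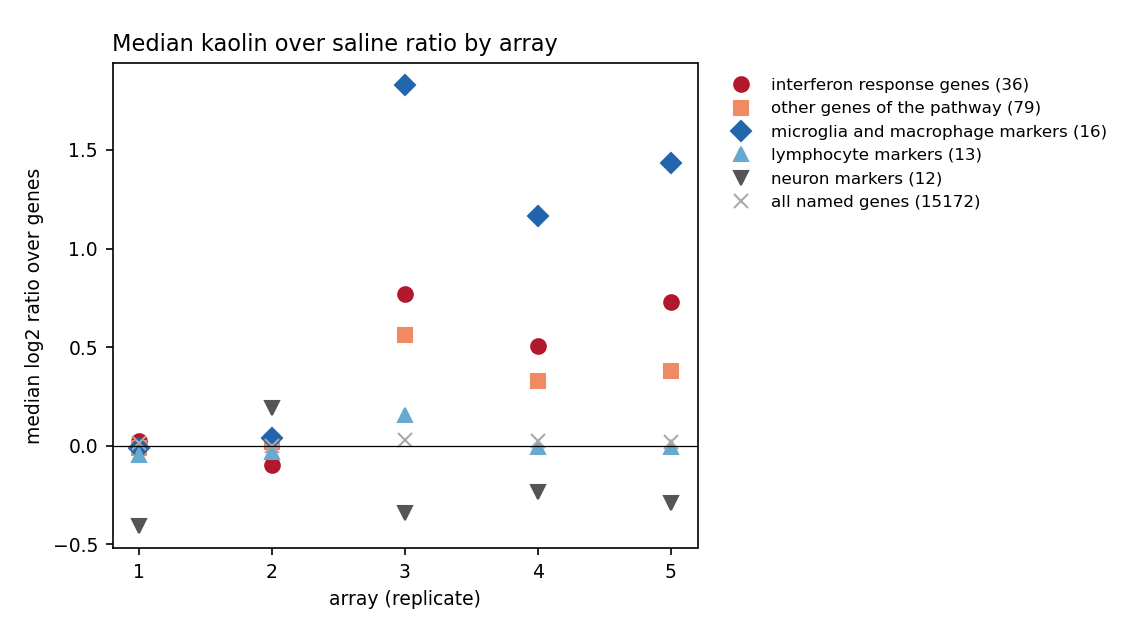
Median log2 ratio of kaolin over saline over the genes of each list (number of genes in brackets) on each of the 5 arrays. The members and the microglia and macrophage markers are near 0 on arrays 1 and 2 and above 0 on arrays 3 to 5, where the markers lie at 1.16 to 1.83 and the members at 0.51 to 0.77.

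The size of the members' ratios depended on how background and dye were handled, although their direction mostly did not. The median over members was 0.39 with normexp and loess, 0.71 with the software's processed signals, 0.72 with its own log ratios and 0.70 in the authors' deposited value table. On the processed signals 8 of the 34 tested members had a mean over 1.5 times as large in size, namely Irf1, Irf2, Ifih1, Mx1, Ifit3, Usp18, Igtp and Ifi47. Ifnar1 turned to -0.07 with median centring in place of loess.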

How the data were processed

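The two-colour Agilent arrays of rat parietal cortex numbered 5, each pairing 1 kaolin sample (Cy3) with 1 saline sample (Cy5). The deposited files hold spot intensity, local background and quality flags that per the file headers came from the Agilent Feature Extraction software, version 10.1.1.1. They also hold the software's log10 ratio of Cy5 over Cy3, per the file headers. The authors' deposited value table holds log2 ratios; its column medians were 0.02, -0.05, -0.02, 0.09 and -0.10. Against the scanner log10 ratio its columns correlated at -1.00 to -0.978, so it reads kaolin over saline. Its normalization and centring are not given in the sources used here.

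Mean signals were background-corrected with normexp (offset 50) and normalized by loess within arrays, with control spots at weight 0 and 86 to 147 outlier spots left out per array. The ratio was tested against 0 with limma 3.58.1 in R 4.3.3, with Benjamini-Hochberg adjustment over 29114 probes, each marked well above background in the kaolin or the saline channel on 3 or more arrays. The fit was tested on simulated data. Levels per channel are after Aquantile. The array is the pairing, so the test is paired by hybridisation. Precision is limited by the number of arrays.

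Probe names were updated through the RefSeq table by accession (10768 probes), symbol (4994), older symbol (3341) or another accession (276), and 21633 kept the name in the files. Probe positions are the files' own, on rn4; whether a probe lies in an exon or UTR was not analysed here.

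The members and lists were chosen with earlier results of these data known. All members are named. Values on every array are given for members with a mean of at least 1 in size, the largest and smallest of each role, those of 1 sign on all arrays and those whose probes differ in sign; of each pathway list the 3 largest are named, besides Cxcl10 and Socs3, except an item that is not reported here. Alternatives covered background correction, normalization, dim-probe filter, array weights, slide, pairing, the sign of array 2, the probe per gene and each array left out.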

Additional observations from a re-analysis of the deposited data

How the results depend on the processing

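The count of probes past an adjusted p of 0.05 (limma) was 0 in the reported fit. It was 22 with median centring, all lower in kaolin, 3483 with array weights, 489 with the sign of array 2 turned, and 0 to 1536 with 1 array left out, the highest without array 2. With no replicate block, each channel taken as a sample, it was 3 probes and 0 members. Of 34 tested members, 19 were called with array weights and 0 to 6 with 1 array left out. Of 64 other tested genes of the pathway, 26 and 0 to 7 were called. With array weights 12% of all probes were called, and 8.06% of all genes were called higher and 4.07% lower. Without array 2 the background was 5.28% of probes. The members' median ranged from 0.29 to 0.51 with 1 array left out, was 0.30 on slide 1 alone (without array 5), and stayed positive in every setting run. With slide as a random block (correlation -0.0863) 0 members were called. The 34 tested members kept their sign under all alternatives except Adar, at 0.0035 with no background subtraction, 0.0249 with processed signals and 0.0137 with the software's log ratios and the authors' values, and Ifnar1, at -0.0707 with median centring. The lowest adjusted p of a member lay between 0.0422 and 0.659 over the alternatives. Signal over background limits Mx1, Ifit3, Igtp, Ifi47, Gbp5 and Oasl.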

Other observations

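Genes outside the member list whose promoters hold the response element core had a median ratio close to that of all genes. A mean of at least 1 was more frequent among them, and no filter on dim probes was applied. Of 383 such genes on the array 57.4% had a mean log2 ratio above 0, against 55.2% of the 11914 other genes without the core. Their median was -0.01, 0.00, 0.06, 0.03 and 0.05 on arrays 1 to 5. A mean of at least 1 was reached by 1.83% of those with the core and 0.571% of those without.

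The 7 genes with the core and a mean of at least 1, named after their values were seen, were Fcgr3a at 2.01, Adgre1 at 1.45, Ifitm7 at 1.23, Mcub at 1.20, Cxcl10 at 1.06, Ncf1 at 1.05 and Ifgga2l1 at 1.02. Fcgr3a is an Fc receptor of phagocytes, Adgre1 is a macrophage surface marker, and Ncf1 is a subunit of the phagocyte oxidase. Ifitm7 and Ifgga2l1 belong to the families of Ifitm3 and Ifi47, so signal may be shared with those members. Cxcl10 was well above background on 4 kaolin and 2 saline arrays.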
